A study of Homo sapiens with 8 samples.

Results

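Homologous recombination repairs DNA double-strand breaks with the intact sister chromatid as template, and it is used mainly in the S and G2 phases of the cell cycle. Broken ends are first resected to single strands. BRCA1, PALB2 and BRCA2 with their mediators then load the recombinase on those strands, the loaded filament invades the template, and the joined molecules are taken apart by a dissolving complex or by nucleases. The genes that encode this machinery were described in U251, a human glioblastoma cell line, after inhibition of PRMT5, an arginine methyltransferase. The RNAseq was collected in a study of PRMT5 and radiosensitivity, and the comparison asks which of these genes changed in mRNA level.

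The genes were the 37 of a named list, matched by symbol, and all 37 were found among the 61906 genes of the table. The 8 libraries came from 4 cultures of wild type U251 given vehicle (DMSO) and 4 given LLY-283, a PRMT5 inhibitor, at 100 nM for 24 h. The cultures are numbered as biological replicates of a single cell line, and the labels name no irradiation. Values were TPM, the length-corrected share of a transcript among all transcripts of a library, so that levels can be compared between genes but depth is unknown. All 37 passed the filter of a mean of at least 1 TPM that left 14478 genes for testing.

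Of the glioma markers, VIM (4301 ± 34.8 TPM in vehicle, SD, n = 4), NES, CD44, SOX2 and GFAP were abundant, while S100B was at 4.33 ± 0.645 TPM and OLIG2 at 0.0075 ± 0.015 TPM. The leukocyte genes PTPRC and CD3E and the endothelial gene PECAM1 had group means of at most 0.0125 TPM, and the epithelial genes EPCAM and CDH1 and the neuronal gene RBFOX3 of at most 0.113 TPM. Of the same lists, CD68 (leukocytes) was at 1.75 ± 0.874 TPM, KDR (endothelial cells) at 2.37 ± 0.178 TPM, and SYT1 and SNAP25 (neurons) at 5.12 ± 0.409 and 0.62 ± 0.193 TPM in vehicle (SD, n = 4). KRT8, KRT18 and TUBB3, which cultured tumor cells can also express, had means above 200 TPM in vehicle. Some markers moved with LLY-283. NES, SOX2, GFAP and TUBB3 had log2 fold changes of -0.17, -0.27, -0.25 and -0.17 (adjusted p = 0.00073, 0.00035, 0.00082 and 0.0361) and CD44 one of 0.11 (adjusted p = 0.0168), and their part in the results for the HR genes was not tested. The summed TPM of mitochondrially encoded genes was 71943 in LLY-283 replicate 4 and 101536 to 109954 in the other libraries, so that counts without this library are given where it matters.

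Of the 37 recombination genes, 10 decreased and 2 increased after LLY-283 at an adjusted p under 0.05 (limma on log2(TPM + 0.1), Benjamini-Hochberg over all genes tested). This was 27.0% and 5.41% of the list, beside 17.6% decreased and 8.61% increased of all 14478 genes tested. The decreased genes were the resection genes RBBP8 and EXO1, BRCA1, the mediators SWI5, SFR1, RAD51B, XRCC2 and XRCC3, the helicase gene MCM8 and the dissolution gene RMI1. The increased genes were RAD52 and RAD54L. SWI5, SFR1 and RAD51B decreased by more than 1.5-fold, which was 8.11% of the list beside 3.48% of all genes, and no member increased by that much (0.394% of all genes did).

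The median log2 fold change was -0.09 over the 37 genes and -0.05 over all genes tested, and 27 of the 37 (73.0%) beside 60.2% of all genes were below 0. The medians were -0.01 and 0.01 under quantile normalization, -0.04 and -0.0022 under median-of-ratios scaling and -0.03 and 0.03 with a GC and length trend removed, so that the median of all genes turned sign under quantile normalization and trend removal while that of the 37 stayed below 0. In 11 of the 37 genes (29.7%) every LLY-283 library was below every vehicle library, beside 19.6% of all genes, and in none was every LLY-283 library above, beside 9.63%. The 11 comprised the decreased genes other than XRCC3, with RAD54B and MUS81. Under quantile normalization 8 members decreased and 3 increased (all genes, 1820 and 1871), and with a trend on GC content and length removed 7 decreased and 3 increased (all genes, 1644 and 2801), beside 2541 and 1247 of all genes as reported. Without LLY-283 replicate 4 the counts were 11 decreased and 2 increased (all genes, 2659 and 1508). Without any one of the other libraries 7 to 9 members decreased (all genes, 1889 to 2143 decreased and 888 to 1023 increased). Without vehicle replicate 2 or 3 or LLY-283 replicate 1, 2 or 3, or with no filter on low values, 0 members increased. With no filter 2041 of all genes decreased and 930 increased. In these bulk samples fewer cells in the phases that express a gene and less of its RNA per cell cannot be told apart.

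**Figure D1:**
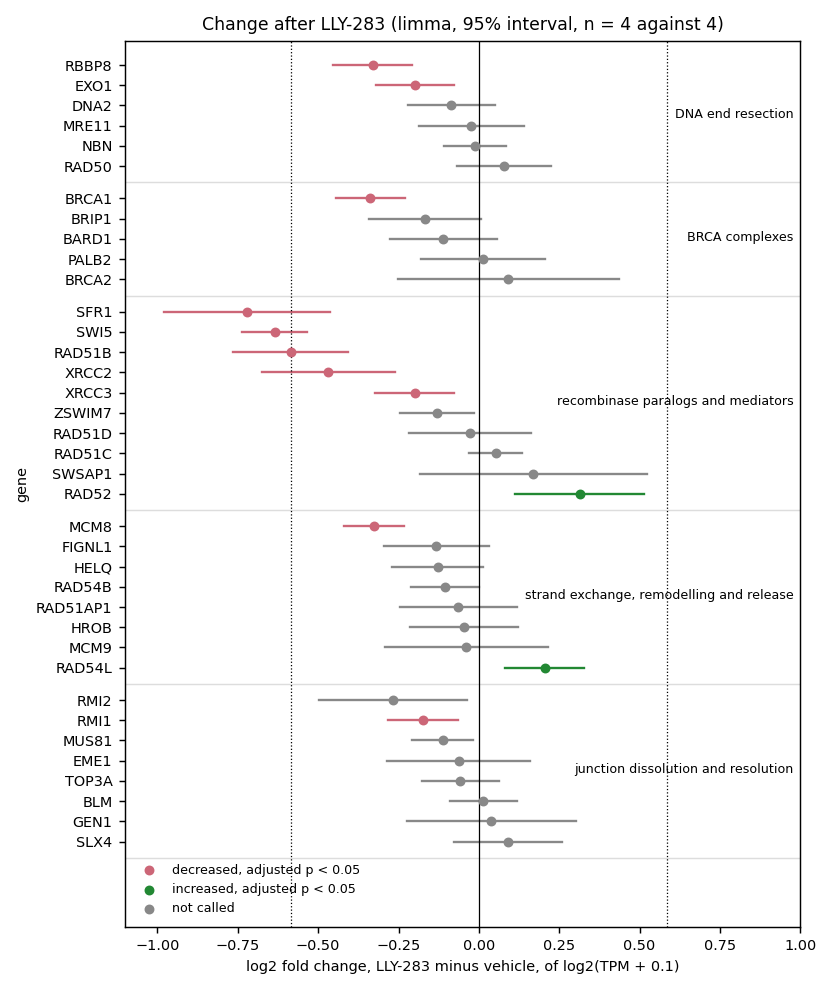
Log2 fold change (LLY-283 minus vehicle) of the 37 genes with its 95% interval from limma, 4 libraries against 4, grouped by role and ordered by size. Colored points have an adjusted p under 0.05 and dotted lines mark a 1.5-fold change; SFR1, SWI5 and RAD51B lie at or past the left line, and RAD52 is the highest point.

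The genes ranged over a mean of 1.68 TPM for SWSAP1 to 60.1 TPM for SWI5 across the 8 libraries, with 10 genes under 10 TPM, 23 between 10 and 40 TPM and 4 over 40 TPM. Their median of 15.3 TPM was close to the 17.1 TPM of all genes tested. Summed over the 37 genes the level was 736.7 ± 8.56 TPM in vehicle (727.0 to 746.7, n = 4) and 668.9 ± 16.2 TPM in LLY-283 (645.9 to 684.1, n = 4). The ranges did not overlap, and the mean fell by 67.9 TPM, that is, it fell by 9.21%. SWI5 alone fell by 26.1 TPM on this scale, and without it the sum went from 663.6 to 621.9 TPM, and fell by 6.29%. These sums are of unscaled TPM. The factors by which median-of-ratios scaling divides were 1.01 to 1.03 in vehicle and 0.972 to 0.992 in LLY-283. Such scaling would make both falls smaller, and the scaled sums were not computed.

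**Figure D2:**
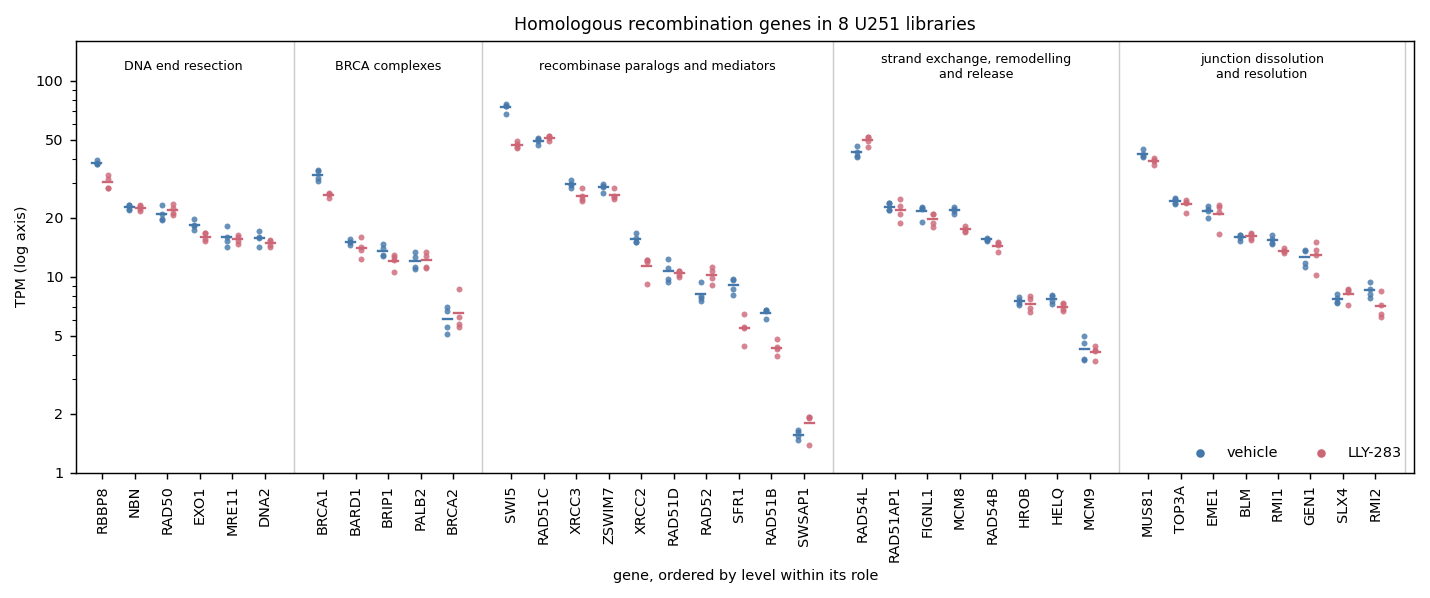
TPM (log axis) of each of the 37 genes in each library, vehicle in blue and LLY-283 in red, with a line at the group mean. SWI5 is the highest gene in vehicle and SWSAP1 the lowest, and the red points of SWI5, SFR1, RAD51B, XRCC2, BRCA1, RBBP8 and MCM8 lie apart below the blue ones.

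The gene with the highest level was SWI5, whose product forms with that of SFR1 a small complex that stabilizes recombinase filaments. SWI5 (ENSG00000175854, chr9:128275379-128316123 on GRCh38, plus strand, 5 exons) and SFR1 (ENSG00000156384, chr10:104122058-104126385, plus strand, 4 exons) lie on different chromosomes. The stretches before their start sites are shown because these are the partners that fell together and by the largest fold changes of the list. They come from RefSeq promoters on GRCh38.p14, are cut to the bases outside annotated exons, and carry in capitals the letters CCAAT and GGGCGG or their reverse complements ATTGG and CCGCCC. The SWI5 stretch is chr9:128276027-128276221 and the SFR1 stretch is chr10:104121858-104122057, both on the plus strand.
SWI5: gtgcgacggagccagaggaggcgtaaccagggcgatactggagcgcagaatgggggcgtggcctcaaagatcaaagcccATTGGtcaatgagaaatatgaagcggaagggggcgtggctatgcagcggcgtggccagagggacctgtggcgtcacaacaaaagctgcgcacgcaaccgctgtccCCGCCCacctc
SFR1: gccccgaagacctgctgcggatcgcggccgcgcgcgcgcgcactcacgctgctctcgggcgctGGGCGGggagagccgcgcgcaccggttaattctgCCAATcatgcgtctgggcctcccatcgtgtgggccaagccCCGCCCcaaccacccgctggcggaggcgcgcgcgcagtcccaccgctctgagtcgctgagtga

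Distances are counted from the RefSeq start sites, chr9:128276276 for SWI5 and chr10:104122108 for SFR1. Both sites lie inside the gene spans given above, and that of SFR1 is 63 bases from the start of its canonical transcript. In SWI5 the CCAAT letters begin 170 bases and the GGGCGG letters 65 bases before the start site, both on the minus strand. In SFR1 the GGGCGG letters stand 187 bases (plus strand) and 113 bases (minus strand) before the start site. The CCAAT letters of SFR1 stand 153 bases before it on the plus strand.

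SWI5 was at 76.5, 74.3, 67.8 and 73.9 TPM in the vehicle libraries and at 45.3, 47.6, 45.9 and 49.2 TPM in the LLY-283 libraries. The groups lay well apart, with little spread in either. The decrease was 1.55-fold (log2 fold change -0.64, SE 0.045, adjusted p = 4.25e-05), and 4.46% of the genes tested had a lower fold change. With the GC and length trend removed SWI5 was still called, at -0.50, but not past 1.5-fold. GOLGA2 (91.9 TPM) and TRUB2 (33.3 TPM) overlap SWI5 from the other strand, and since it is not stated whether reads were counted by strand, the value of SWI5 is uncertain to that extent. The same holds for XRCC3, which KLC1 (122.4 TPM, log2 fold change -0.16, adjusted p = 0.0373) overlaps from the other strand. It also holds for RAD54L, which LRRC41 (76.8 TPM, log2 fold change 0.02, adjusted p = 0.554) overlaps. SFR1 was at 8.69, 8.02, 9.65 and 9.74 TPM in vehicle and at 6.45, 5.46, 4.41 and 5.54 TPM in LLY-283. Every LLY-283 value of SFR1 was again below every vehicle value, and replicate 3 was the lowest of them. Its decrease was 1.65-fold (log2 fold change -0.72, SE 0.114, adjusted p = 0.002), and 3.29% of the genes tested had a lower one.

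SWI5 mRNA was 8.04 times as abundant as SFR1 mRNA in vehicle and 8.53 times in LLY-283. The log2 ratio of the partners differed between the groups by 0.09, less than its SD of 0.18 in vehicle and 0.23 in LLY-283 (exact permutation p = 0.629, two-sided, n = 4 against 4). SWI5 was above RAD51C, the next gene in level, in every vehicle library. In every LLY-283 library SWI5 (45.3 to 49.2 TPM) was below RAD51C (49.2 to 52.5 TPM), although the ranges met at their edges.

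RAD51B, RAD51C, RAD51D and XRCC2 encode paralogs of the recombinase that form a single complex, and RAD51C also pairs with XRCC3 in another. RAD51B (ENSG00000182185, chr14:67819779-68730218) was at 6.73, 6.68, 6.07 and 6.78 TPM in vehicle and at 3.94, 4.39, 4.80 and 4.26 TPM in LLY-283. The highest LLY-283 value was below the lowest vehicle value. The decrease was 1.501-fold, just past the threshold (log2 fold change -0.59, SE 0.080, adjusted p = 0.00093), and the gene was called under every alternative. It was not past 1.5-fold with a pseudocount of 0.5 or 1 TPM (-0.55 and -0.50), under quantile normalization (-0.44), under median-of-ratios scaling (-0.54), with the GC and length trend removed (-0.48), or without vehicle replicate 1, 2 or 4 (-0.57, -0.58 and -0.57) or LLY-283 replicate 1 or 4 (-0.54 and -0.58). RAD51C, its direct partner, was at 51.2, 50.4, 49.0 and 47.2 TPM in vehicle and 52.5, 49.2, 51.1 and 52.2 TPM in LLY-283. The groups overlapped (log2 fold change 0.05, 95% interval -0.03 to 0.14, adjusted p = 0.334). RAD51C was thus about an order of magnitude above RAD51B on the per-length scale, and the ratio of RAD51B to RAD51C went from 0.134 to 0.0864.

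XRCC2 (ENSG00000196584, chr7:152644776-152676193) was at 15.8, 15.1, 16.8 and 15.02 TPM in vehicle and at 11.9, 12.2, 12.2 and 9.17 TPM in LLY-283. All LLY-283 values were lower, and replicate 4 stood below the other three of its group. This was a log2 fold change of -0.47 (SE 0.092, adjusted p = 0.0058), and without that replicate it was -0.37 and still called. RAD51D, the partner of XRCC2, had overlapping groups of 10.7 ± 1.33 and 10.4 ± 0.387 TPM (SD, n = 4 each). XRCC3 (ENSG00000126215, chr14:103697609-103715504) was at 29.8, 28.4, 31.3 and 29.4 TPM in vehicle and at 25.8, 28.5, 24.9 and 24.4 TPM in LLY-283. LLY-283 replicate 2 reached into the vehicle range. At a log2 fold change of -0.20 (SE 0.054, adjusted p = 0.025) XRCC3 was called, and the call was lost on leaving out vehicle replicate 1, 3 or 4 or LLY-283 replicate 1 or 3 (adjusted p = 0.0597, 0.0696, 0.0549, 0.0556 and 0.0655). It was also lost with no filter on low values (adjusted p = 0.0524), with median-of-ratios scaling (-0.15, adjusted p = 0.052), with a replicate block (adjusted p = 0.0588) and with the GC and length trend removed (-0.13, adjusted p = 0.113).

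The other mediators were not called or increased. ZSWIM7 and SWSAP1 encode partners of a further small complex that promotes filament assembly. ZSWIM7 was at 28.6 ± 1.25 TPM in vehicle and 26.1 ± 1.54 TPM in LLY-283 (SD, n = 4 each; adjusted p = 0.093), and it was called on leaving out LLY-283 replicate 4 (log2 fold change -0.17, adjusted p = 0.0208). SWSAP1, the lowest gene of the list, was at 1.54, 1.65, 1.46 and 1.61 TPM in vehicle and 1.91, 1.93, 1.38 and 1.93 TPM in LLY-283, with replicate 3 below all other libraries and replicates 1, 2 and 4 above all vehicle ones. Its interval of -0.18 to 0.52 on the log2 scale was the widest upwards among the uncalled genes.

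RAD52, which anneals single strands and can aid recombinase loading, increased. It was at 7.55, 7.78, 7.99 and 9.41 TPM in vehicle and at 11.2, 10.7, 9.87 and 9.03 TPM in LLY-283. The LLY-283 values were higher except that replicate 4 lay below vehicle replicate 4. RAD52 thus had a log2 fold change of 0.31 (SE 0.089, adjusted p = 0.029). RAD52 (ENSG00000002016, chr12:911736-990053) overlaps on its own strand the long non-coding gene ENSG00000250132, at a mean of 2.78 TPM, which had a log2 fold change of -1.39 (adjusted p = 0.0028), and how reads were shared between them was not tested. The call of RAD52 was lost without vehicle replicate 1, 2 or 3 (adjusted p = 0.0823, 0.0782 and 0.0747) or LLY-283 replicate 1, 2 or 3 (adjusted p = 0.0781, 0.0822 and 0.0545), with no filter on low values (adjusted p = 0.0656) and with a replicate block (adjusted p = 0.0802).

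Upstream of these steps, BRCA1 acts with BARD1 as a ubiquitin ligase that promotes resection and the hand-over to PALB2 and BRCA2. BRCA1 (ENSG00000012048, chr17:43044295-43170245) was at 31.8, 30.9, 34.9 and 34.8 TPM in vehicle and at 26.7, 26.4, 26.3 and 25.2 TPM in LLY-283. The LLY-283 libraries were close to each other and all below vehicle. BRCA1 had a log2 fold change of -0.34 (SE 0.048, adjusted p = 0.0012). Of the other 4 genes of this group none was called. BARD1 was at 15.1 ± 0.495 TPM in vehicle and 13.998 ± 1.52 TPM in LLY-283, and the helicase gene BRIP1 at 13.6 ± 0.971 and 12.1 ± 1.08 TPM (SD, n = 4 each). PALB2, the bridge between BRCA1 and BRCA2, was at 12.1 ± 1.15 and 12.2 ± 1.14 TPM. BRCA2, which delivers the recombinase to DNA, was at 5.54, 7.02, 6.66 and 5.13 TPM in vehicle and 5.55, 6.20, 8.69 and 5.74 TPM in LLY-283, with an interval of -0.25 to 0.43.

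Among the resection genes RBBP8, which encodes CtIP, the cofactor that starts resection with the MRE11 nuclease, decreased most. RBBP8 (ENSG00000101773, chr18:22798261-23026488) was at 37.6, 38.2, 39.3 and 37.4 TPM in vehicle and at 28.4, 33.1, 28.4 and 31.6 TPM in LLY-283. The vehicle values were close together and all above the LLY-283 ones. The log2 fold change was -0.33 (SE 0.055, adjusted p = 0.0024). EXO1, an exonuclease that extends resection (ENSG00000174371, chr1:241847967-241895148), was at 18.4, 19.7, 18.1 and 17.3 TPM in vehicle and at 15.2, 16.6, 16.7 and 15.5 TPM in LLY-283. The groups did not overlap, although the gap between them was small. The log2 fold change was -0.20 (SE 0.054, adjusted p = 0.024), and the call was lost without vehicle replicate 1 or 2 or LLY-283 replicate 1 (adjusted p = 0.0579, 0.0624 and 0.0639). The call of EXO1 was also lost with quantile normalization (-0.14, adjusted p = 0.0892), with median-of-ratios scaling (-0.15, adjusted p = 0.0661) and with the GC and length trend removed (-0.14, adjusted p = 0.0793).

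MRE11, RAD50 and NBN form the complex that binds broken ends, and none of them was called. MRE11 was at 15.9 ± 1.64 TPM in vehicle and 15.6 ± 0.728 TPM in LLY-283, RAD50 at 20.8 ± 1.68 and 21.9 ± 1.32 TPM, and NBN at 22.7 ± 0.795 and 22.5 ± 0.808 TPM (SD, n = 4 each). The interval of NBN was -0.11 to 0.08, but DECR1 (75.0 TPM, log2 fold change -0.28, adjusted p = 0.00047) and OSGIN2 (19.6 TPM) overlap NBN from the other strand, so that its value is uncertain. DNA2, the nuclease of the parallel resection route, had overlapping groups of 15.8 ± 1.19 and 14.8 ± 0.550 TPM (adjusted p = 0.329).

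The strand exchange group of 8 genes held 1 decreased and 1 increased gene. This was 12.5% each, beside 17.6% decreased and 8.61% increased of all genes tested. MCM8 encodes a helicase that works with that of MCM9 in DNA synthesis during repair (ENSG00000125885, chr20:5950652-5998977). It was at 22.1, 21.7, 22.6 and 21.0 TPM in vehicle and at 18.2, 17.1, 17.5 and 16.9 TPM in LLY-283. The groups lay apart with SDs of 0.670 and 0.537 TPM. The log2 fold change was -0.33 (SE 0.041, adjusted p = 0.00066). Its partner MCM9 was at 4.28 ± 0.606 and 4.14 ± 0.309 TPM, and HROB, which recruits the helicase, at 7.51 ± 0.332 and 7.29 ± 0.643 TPM (SD, n = 4 each), without a call. ASF1A (27.1 TPM) overlaps MCM9 from the other strand, and the value of MCM9 is uncertain to that extent.

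RAD54L encodes a motor protein that drives strand invasion and was the highest gene of its group. RAD54L (ENSG00000085999, chr1:46246461-46278480) was at 46.7, 41.2, 41.04 and 43.4 TPM in vehicle and at 49.5, 51.7, 51.7 and 45.7 TPM in LLY-283. The LLY-283 values were higher, with replicate 4 overlapping vehicle replicate 1. The log2 fold change was 0.20 (SE 0.055, adjusted p = 0.023). The call was lost without vehicle replicate 2, 3 or 4 (adjusted p = 0.0649, 0.067 and 0.0537) or LLY-283 replicate 1, 2 or 3 (adjusted p = 0.0514, 0.0676 and 0.0631), and with no filter on low values (adjusted p = 0.0517). Its relative RAD54B was at 15.4, 15.3, 15.6 and 15.8 TPM in vehicle and 14.8, 14.5, 15 and 13.4 TPM in LLY-283. All LLY-283 values of RAD54B were below vehicle, yet it missed the threshold (log2 fold change -0.10, interval -0.21 to 0.00, adjusted p = 0.134). FSBP (3.36 TPM, log2 fold change -0.30, adjusted p = 0.142) overlaps RAD54B on the same strand, and how reads were shared between them was not tested. RAD51AP1, FIGNL1 and HELQ, which aid strand pairing or remove filaments, had fold changes of -0.06, -0.13 and -0.13 on the log2 scale without a call.

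In the last step the dissolving complex of BLM, TOP3A, RMI1 and RMI2 acts beside the nucleases MUS81-EME1, GEN1 and the scaffold SLX4. RMI1 (ENSG00000178966, chr9:83980798-84004074) was at 15.6, 14.8, 16.4 and 14.7 TPM in vehicle and at 14.02, 13.6, 13.3 and 13.5 TPM in LLY-283. The groups did not overlap, and the difference was the smallest of those called, with a log2 fold change of -0.17 (SE 0.048, adjusted p = 0.026). The call was lost without vehicle replicate 1 or 3 or LLY-283 replicate 2 or 3 (adjusted p = 0.0654, 0.0612, 0.0605 and 0.0657). Quantile normalization (-0.09, adjusted p = 0.174), median-of-ratios scaling (-0.13, adjusted p = 0.0611), a replicate block (adjusted p = 0.0562) and removal of the GC and length trend (-0.11, adjusted p = 0.112) each ended the call of RMI1 as well. RMI2, the lowest gene of the group, was at 8.14, 8.68, 7.82 and 9.41 TPM in vehicle and 8.46, 6.22, 6.49 and 7.20 TPM in LLY-283. LLY-283 replicate 1 lay among the vehicle values. Its log2 fold change of -0.27 was further from 0 than that of RMI1 but less precise (SE 0.102, adjusted p = 0.0843), and without LLY-283 replicate 1 it was -0.35 and called (adjusted p = 0.0234).

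BLM, the helicase of the complex, was at 15.9 ± 0.519 and 16.1 ± 0.640 TPM in vehicle and LLY-283 (SD, n = 4 each). TOP3A, its topoisomerase, was at 24.4 ± 0.758 and 23.4 ± 1.57 TPM. MUS81, the highest gene of the group, was at 40.6, 41.2, 44.9 and 42.5 TPM in vehicle and 40.5, 39.0, 37.3 and 39.6 TPM in LLY-283, without overlap but at an adjusted p of 0.0774. MUS81 overlaps the abundant CFL1 (1422 TPM) on the opposite strand, and whether reads were counted by strand is not stated, so that its value is uncertain. EME1, which LRRC59 (179.9 TPM) overlaps in the same way, was at 21.7 ± 1.29 and 20.9 ± 2.99 TPM, GEN1 at 12.5 ± 1.27 and 12.97 ± 2.04 TPM, and SLX4 at 7.67 ± 0.367 and 8.19 ± 0.705 TPM.

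The 25 genes that were not called had log2 fold changes of -0.27 to 0.17, and 17 of them were below 0. All 25 intervals at 95% stayed within a 1.5-fold change in either direction, with outer bounds of -0.50 and 0.52. The sign was not fixed for MRE11, NBN, RAD51D and MCM9, which turned from negative to positive under quantile normalization, median-of-ratios scaling and removal of the GC and length trend, nor for HROB, RAD51AP1, TOP3A and EME1, which did so under at least 1 of these.

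To compare partners without reference to the scaling of the libraries, the log2 ratio of TPM + 0.1 was computed within each library for 14 pairs. An exact permutation test over the 70 splits of 8 libraries cannot give a p below 0.0286, and 4 pairs reached it. After Benjamini-Hochberg adjustment over the 14 pairs their p was 0.1, and 0 pairs were under 0.05 (4 were under 0.05 unadjusted). These 4 pairs were RAD51B to RAD51C, with a difference in log2 ratio of -0.64, BRCA1 to BARD1 with -0.23, RAD51D to XRCC2 with 0.44 and HROB to MCM8 with 0.28.

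In each of the 4, a called gene was paired with one that was not. The log2 ratio of RAD51B to RAD51C was -2.91, -2.90, -2.99 and -2.78 in vehicle and -3.70, -3.46, -3.39 and -3.58 in LLY-283. Its SD was 0.087 in vehicle and 0.141 in LLY-283, and the groups lay well apart. BRCA1 mRNA was 2.19 times BARD1 mRNA in vehicle and 1.87 times in LLY-283. RAD51D mRNA was 0.679 times XRCC2 mRNA in vehicle and 0.921 times in LLY-283. The MCM8 to MCM9 and XRCC3 to RAD51C pairs differed by -0.29 and -0.25 (exact permutation p = 0.0571 each, n = 4 against 4), and the other 8 pairs, SWI5 to SFR1 among them, had unadjusted p-values of 0.0857 to 0.886.

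**Figure D3:**
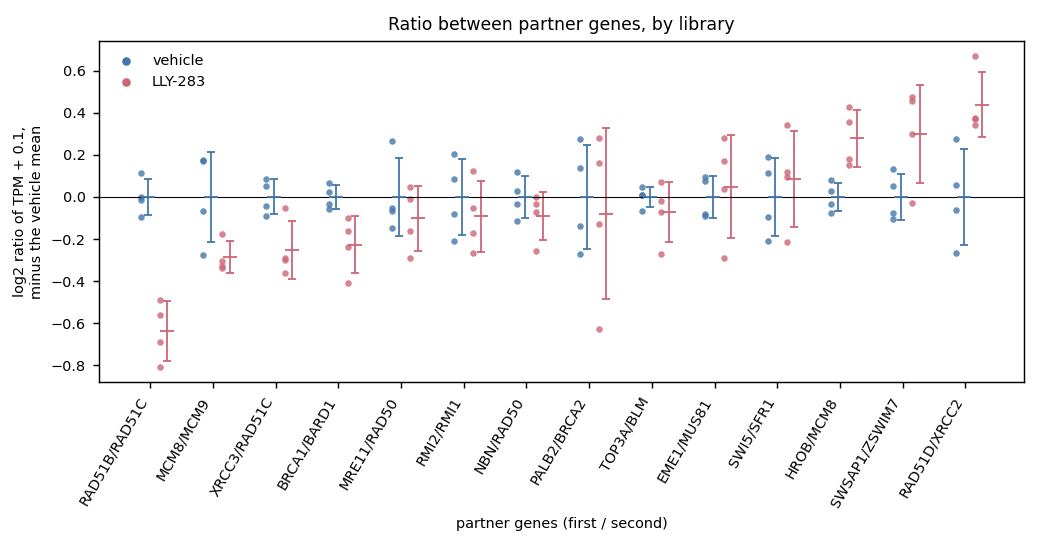
Log2 ratio of TPM + 0.1 between partner genes in each library, drawn minus the vehicle mean of the pair; points are libraries and bars show mean ± SD, n = 4 for vehicle (blue) and LLY-283 (red). RAD51B/RAD51C lies lowest in LLY-283 and RAD51D/XRCC2 highest, and the points of SWI5/SFR1 mix.

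Some recombination genes start back to back with another gene, and the share of all genes that do so was not measured. By the first base of the canonical transcripts of GENCODE release 44, 23 of the 37 genes had a gene starting divergently within 1000 bases, and for 14 of them that neighbour was itself tested. These pairs were examined after the values had been seen. Among the 14, 5 recombination genes and 3 neighbours were called, and in 0 pairs were both called in the same direction. With 17.6% of all genes decreased and 8.61% increased, joint calls would be few among 14 pairs, and nothing is read from that count.

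GOLGA2, a Golgi gene which starts 269 bases from SWI5, was at 87.8 ± 3.38 TPM in vehicle and 95.9 ± 6.54 TPM in LLY-283 (SD, n = 4 each; log2 fold change 0.12, SE 0.050, adjusted p = 0.0965). SWI5 thus differed from its neighbour by -0.76 on the log2 scale. TRMT6, 119 bases from MCM8, had a log2 fold change of -0.07 (SE 0.056) beside -0.33 for MCM8. NBR2, the non-coding neighbour 187 bases from BRCA1, had one of -0.16 (SE 0.082, adjusted p = 0.184) beside -0.34 for BRCA1. NBR2 overlaps BRCA1 from the other strand, so that these values are uncertain too. On its own strand BRCA1 overlaps the long non-coding gene ENSG00000267002 (4.95 TPM, log2 fold change -0.23, adjusted p = 0.21) and the pseudogene ENSG00000267340 (2.6 TPM). How reads were shared between BRCA1 and these genes was not tested.

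The neighbours that were called all increased. DCTN5, a dynactin gene 156 bases from PALB2, went from 42.7 ± 0.925 to 54.99 ± 1.78 TPM (an increase of 0.37 on the log2 scale, adjusted p = 0.00015), with PALB2 at 0.01. MRPS18C, a mitochondrial ribosome gene 235 bases from HELQ, rose by 0.19 (adjusted p = 0.0028) with HELQ at -0.13, and SMC6, a chromosome maintenance gene 328 bases from GEN1, by 0.20 (adjusted p = 0.0229) with GEN1 at 0.04. SMC6 and GEN1 overlap, so that their values are uncertain. The difference within a pair was at the smallest exact permutation p of 0.0286 for SWI5, PALB2, HELQ, MCM8 and RMI1 (n = 4 against 4), and at 0.080 after adjustment over the 14 pairs.

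**Figure D4:**
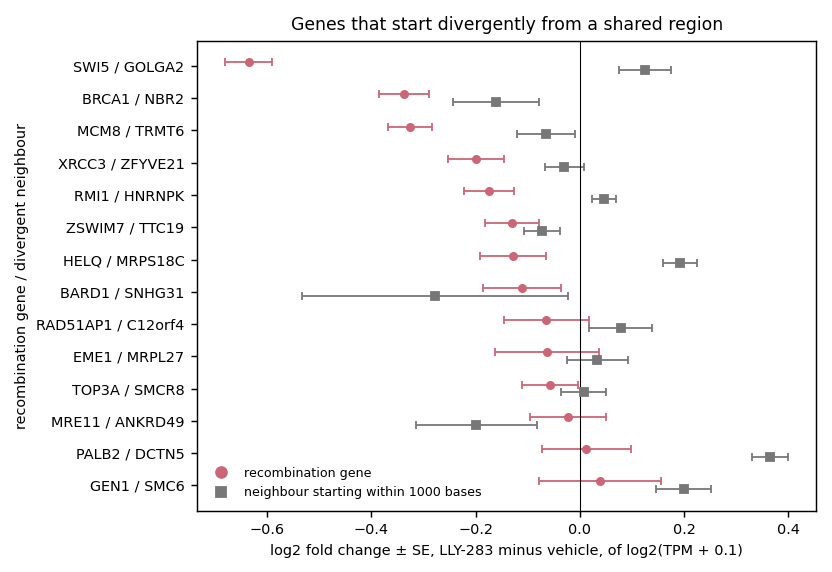
Log2 fold change ± SE (LLY-283 minus vehicle) of recombination genes (circles) and of the gene that starts divergently within 1000 bases (squares), ordered by the recombination gene. SWI5 and GOLGA2 lie furthest apart, and DCTN5, the neighbour of PALB2, is the highest neighbour.

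Promoters of 33 of the 37 genes, the 250 bases before the RefSeq start site, were searched on both strands for fixed letters and set beside 10421 promoters of tested genes of the same length. DNA2, NBN, RAD54B and RMI2 were not among them. The E2F-type letters TTTCCCGC were found in 1 of 33 (3.03%, HROB) beside 2.48% of all, and TTTGGCGC in none beside 1.01%. CCAAT was found in 17 (51.5%) beside 36.2% and the ETS-type letters CCGGAAG in 10 (30.3%) beside 17.2%. GGGCGG, the letters bound by SP1-type factors, was found in 21 (63.6%) beside 70.7%. The letters TTTGAA and TTCGAA of the cell cycle homology element were found in 2 (6.06%) and 0 beside 7.78% and 1.42%. Of the 10 decreased genes, all matched, 5 held CCAAT, 7 held GGGCGG and 1 held CCGGAAG, so that the letters capitalized in the SWI5 and SFR1 stretches were not shared by all that fell.

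The canonical transcripts of the 37 genes had a median of 14 exons beside 9 over 12095 tested protein-coding genes, a median length of 3543 beside 3368 bases and a median GC content of 41.8% beside 47.9%. Over the 37 genes the log2 fold change had a Spearman correlation of 0.30 with transcript length, 0.24 with exon number, 0.11 with GC content and -0.14 with level, beside -0.0026, 0.09, -0.01 and 0.25 over the protein-coding genes, given as descriptions of points that share the 8 libraries. SWI5, at 731 bases, had the shortest transcript of the list.

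A further 37 genes that act with the recombination machinery, a list that includes replication protein A, the BRCA1-A complex and end-protection factors, gave 9 decreased (24.3%) and 3 increased (8.11%) genes with a median of -0.04, beside 17.6%, 8.61% and -0.05 for all genes tested. PSMC3IP, which with MND1 stimulates strand invasion, was at 55.4 ± 3.52 TPM in vehicle and 39.1 ± 3.32 TPM in LLY-283 (log2 fold change -0.50, adjusted p = 0.0008). MND1, named after its value was seen, fell from 17.6 ± 0.970 to 13.4 ± 1.47 TPM (-0.40, adjusted p = 0.0056). ABRAXAS1, the scaffold of the BRCA1-A complex, fell from 8.42 ± 0.536 to 5.90 ± 0.370 TPM (-0.51, adjusted p = 0.0012), and RPA3, a subunit of replication protein A, from 177.0 ± 5.68 to 153.9 ± 4.27 TPM (-0.20, adjusted p = 0.0022). With the GC and length trend removed RPA3 was at -0.11 and still called, and with a replicate block added to that its call was lost (adjusted p = 0.080).

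The 3 that increased were PARPBP, an inhibitor of recombination (27.3 ± 0.938 to 32.8 ± 1.03 TPM), the checkpoint gene TOPBP1 (35.4 ± 2.88 to 43.2 ± 3.55 TPM) and SLX1B, a nuclease gene with a near-identical copy. The call of TOPBP1 was lost without vehicle replicate 4 (adjusted p = 0.0514). SLX1B had a log2 fold change of 0.71 while its copy SLX1A had -0.30, and their reads may be split between them, so that both are uncertain.

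Since recombination genes are expressed with the cell cycle, lists of 20 G1/S and 20 G2/M genes were read in the same comparison. Of the G1/S genes 7 decreased (35.0%, beside 17.6% of all genes) and 1 increased (5%, beside 8.61%), with a median log2 fold change of -0.09, and the summed level was 2022 to 2085 TPM in vehicle and 1837 to 1939 TPM in LLY-283. RRM2, a ribonucleotide reductase subunit, had a log2 fold change of -0.65, the cyclin gene CCNE2 one of -0.49 and E2F1, a transcription factor of S phase entry, one of -0.35 (adjusted p = 1.68e-05, 0.00084 and 0.00014), whereas the replicative helicase gene MCM3 rose by 0.23 (adjusted p = 0.0014). Of the G2/M genes 6 decreased (30.0%, beside 17.6% of all genes) and 1 increased (5%, beside 8.61%), the median was also -0.09, and the sums were 2709 to 2754 and 2447 to 2582 TPM. NUSAP1, TOP2A and CDK1 fell by 0.27, 0.21 and 0.20 and TTK rose by 0.17 on the log2 scale. The part of the cell cycle genes in the change of the recombination genes was not tested.

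Of the 10 decreased recombination genes, 7 were called under every one of 21 alternative analyses, namely RBBP8, BRCA1, RAD51B, XRCC2, SWI5, SFR1 and MCM8. EXO1 was called in 14, RMI1 in 12 and XRCC3 in 11 of the 21. Neither increased gene was called in all, with RAD54L in 14 and RAD52 in 13.

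**Figure D5:**
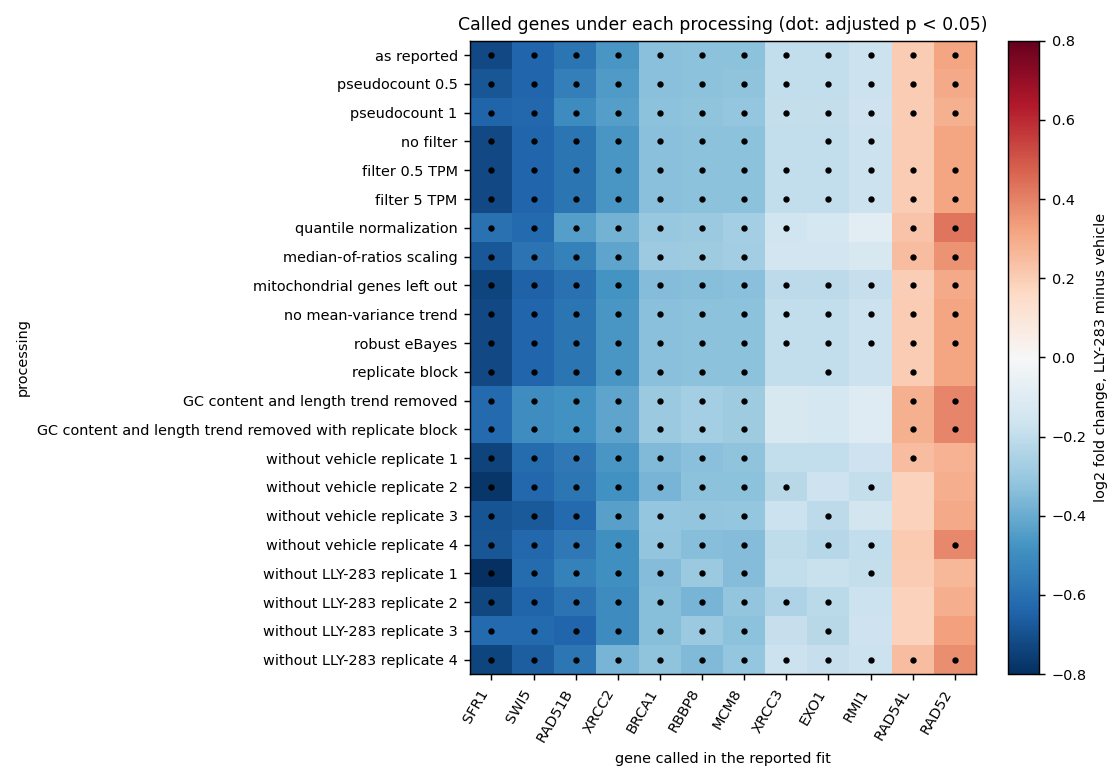
Log2 fold change (color, LLY-283 minus vehicle) of the 12 called genes under the analysis as reported and 21 alternatives, with a dot where the adjusted p is under 0.05. The 7 columns from SFR1 to MCM8 carry a dot in every line, and the 5 columns from XRCC3 to RAD52 do not.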

How the data were processed

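RNA was captured with oligo-dT from 8 cultures of U251 cells. Per the study's methods and the submitters' processing notes, the authors trimmed reads with Cutadapt 1.18, mapped them to hg38 with STAR and estimated gene levels with RSEM on GENCODE release 41. The notes give STAR 2.7.0f and RSEM 1.3.1, whereas the methods name other versions of both. The authors deposited TPM values per gene and library, rounded to 2 decimals, and whether counting used strand is not given in the sources used here. TPM keeps no depth, so no counting error can be given, and it does not correct for the composition of the libraries. Estimates for overlapping or near-identical genes are uncertain.

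TPM values were taken as log2(TPM + 0.1), genes whose mean over the libraries was under 1 TPM were left out, and 14478 remained. LLY-283 (n = 4) was compared with vehicle (n = 4) in limma 3.58.1 under R 4.3.3, by lmFit followed by eBayes with trend = TRUE and with no block for the replicate. The Benjamini-Hochberg adjustment ran over all genes tested, with a threshold of 0.05. A fold change on this scale understates changes of low genes. Partner ratios were compared by two-sided exact permutation over libraries (scipy 1.17.1). Positions, exons and lengths came from GENCODE release 44, which matched 14457 of the 14478 genes, and promoters from RefSeq. The members and the lists were chosen with earlier results of these data known. All called members, the highest and lowest of each role and the pairs at the smallest p are named, and of the other lists the genes changed by more than 1.5-fold and at most the 3 smallest adjusted p in each direction. The comparison was tested on simulated data of 14478 genes, in which 176 of 200 genes changed by 1 on the log2 scale were recovered and 11 unchanged genes were called. No member changed by as much as 1, and the recovery of smaller changes was not simulated. Alternatives were other pseudocounts, filters, scalings and eBayes settings, blocking by replicate, removal of a GC and length trend (natural splines, 4 degrees of freedom), mitochondrial genes left out and each library left out.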

Additional observations from a re-analysis of the deposited data

Results flagged for a closer look

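Among 130 groups of 4 libraries, 8 held a library whose gap to the nearest other exceeded the 95% limit for its group, where chance alone gives about 1 in 20. Of the recombination genes, RAD51B was at 6.07 TPM in vehicle replicate 3, XRCC2 at 9.17 TPM in LLY-283 replicate 4, SWSAP1 at 1.38 TPM in LLY-283 replicate 3 and FIGNL1 at 19.1 TPM in vehicle replicate 2, each the lowest of its group. The log2 ratio of RAD51D to XRCC2 was highest in LLY-283 replicate 4, at 0.11. Of the other named genes, RPA3 was at 147.6 TPM in LLY-283 replicate 4, PARPBP at 25.9 TPM in vehicle replicate 2 and MCM3 at 99.4 TPM in vehicle replicate 4, each again the lowest. LLY-283 replicate 4 was the far library in 3 of the 8.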

How the results depend on the processing

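The 10 decreased members became 7 to 10 under the alternatives that kept all libraries (all genes, 1371 to 2663). On leaving out a library the count was 7 to 11 (all genes, 1889 to 2659). The 2 increased members became 0 without a filter on low values (all genes, 930). On leaving out a library the increased members numbered 0 to 2, with 0 in 5 of 8 cases (all genes, 888 to 1508). The 3 members decreased by more than 1.5-fold became 1 with the GC and length trend removed, with or without the replicate block. The median of the members (-0.09) was -0.0147 under quantile normalization, -0.0413 under median-of-ratios scaling and -0.0327 with the trend removed, where that of all genes (-0.05) was 0.0145, -0.0022 and 0.0317. The cause of these shifts was not tested.

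Of all genes, 1871 increased under quantile normalization, 1927 under median-of-ratios scaling and 2801 with the trend removed, beside 1247 as reported, and 1644 decreased with the trend removed, beside 2541. Median-of-ratios scaling gave 1866 decreased genes. For the further recombination genes, 5 rather than 3 increased with the trend removed.

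Same-numbered deviations correlated at -0.04, 0.03, 0.00 and -0.09, and differently numbered ones at -0.21 to 0.20. No shared effect of the replicate number was thus seen. The labels do not say whether same-numbered cultures were handled together, and these correlations cannot settle it. With the replicate block 8 members decreased and 1 increased (all genes, 2201 and 1095). With block and trend removal together the numbers were 7 and 2, with a median of -0.0327. In that last fit 1371 genes decreased and 2289 increased in all, and 5 of the further genes decreased (9 as reported) and 5 increased.

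Signs turned, without a call, as follows on the log2 scale. MRE11 was 0.0511, 0.0214 and 0.0209 under quantile normalization, median-of-ratios scaling and trend removal (the last the same with the block, here and below), NBN 0.0294, 0.0321 and 0.0388, RAD51D 0.0743, 0.0156 and 0.0346, and MCM9 0.13, 0.00432 and 0.0136. HROB was 0.0808 under quantile normalization and 0.0314 under trend removal, under which RAD51AP1 was 0.0235, TOP3A 0.00488 and EME1 0.0313. Leaving out a library gave ranges of -0.075 to 0.0411 for MRE11, -0.0314 to 0.00729 for NBN, -0.0374 to 0.0627 for PALB2, -0.0513 to 0.162 for BRCA2, -0.0854 to 0.043 for RAD51D, -0.127 to 0.00508 for RAD51AP1, -0.0988 to 0.0338 for MCM9, -0.0885 to 0.000651 for HROB, -0.0055 to 0.0364 for BLM, -0.117 to 0.0436 for EME1, -0.0373 to 0.148 for GEN1, -0.199 to 0.104 for the log2 ratio PALB2/BRCA2, -0.0264 to 0.163 for the log2 ratio EME1/MUS81 and -0.182 to 0.0611 for EME1 minus MRPL27. RAD51C was called with the trend removed (0.12, adjusted p = 0.0422) and SLX4 under quantile normalization (0.21, adjusted p = 0.0281). RPA3 and CDK1 lost their calls with block and trend removal together. Depth is unknown, and the precision rests on 4 libraries a group.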
